A study of Mus musculus with 16 samples.

Results

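The 10 genes described here encode the calcium release and reuptake machinery of the muscle fibre: Atp2a1, Atp2a2, Ryr1, Casq1, Casq2, Sln, Pln, Cacna1s, Pvalb and Jph1. They were chosen by gene symbol, and all 10 had a row in both tables of normalized expression, among 21011 genes in skeletal muscle and 38933 in cortical bone. RNA-seq was made from the tibialis anterior muscle and from cortical bone of female C57BL/6 mice that were 18 months old when treatment began, with no engineered allele named in the labels. BAY-treated mice received BAY2416964 (BAY), an oral antagonist of the aryl hydrocarbon receptor (AhR), at 30 mg/kg by gavage on 5 days per week for 8 weeks. Control mice received the vehicle (VEH) of ethanol, Solutol and water on the same schedule. Each tissue had 4 VEH-treated and 4 BAY-treated mice, 16 libraries in all. Muscle was a whole muscle homogenate, and bone was shafts digested with collagenase after the marrow cells had been taken.

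In a skeletal muscle fibre, an action potential is sensed by the voltage-gated calcium channel of the transverse tubule, which opens the ryanodine receptor of the sarcoplasmic reticulum (SR) and lets stored calcium flow to the myofilaments. SERCA pumps then return calcium to the SR, where calsequestrin buffers it, while parvalbumin binds calcium in the cytosol of fast fibres. Fast fibres are known to use SERCA1 (Atp2a1), whereas slow fibres and heart use SERCA2 (Atp2a2). Fast fibres mainly hold calsequestrin 1 (Casq1), while calsequestrin 2 (Casq2) is found in heart and, beside calsequestrin 1, in slow fibres. Small membrane proteins, sarcolipin (Sln) and phospholamban (Pln), restrain the pumps. The tibialis anterior of the mouse is a predominantly fast muscle.

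The 250 bases upstream of Casq2 and Sln are shown, as the slow and cardiac calsequestrin and the least abundant member, and neither window holds an exon of its own gene. They were read from mm39 at the starts of the GENCODE M39 canonical transcripts, 5′ to 3′ on the strand of the gene. Capitals mark CANNTG, the E-box core that muscle regulatory factors of the MyoD family are known to bind. The start was the same as the boundary in the deposited tables for Sln, and lay 497 bases further upstream for Casq2.
Casq2, chr3:101992984-101993233, plus strand: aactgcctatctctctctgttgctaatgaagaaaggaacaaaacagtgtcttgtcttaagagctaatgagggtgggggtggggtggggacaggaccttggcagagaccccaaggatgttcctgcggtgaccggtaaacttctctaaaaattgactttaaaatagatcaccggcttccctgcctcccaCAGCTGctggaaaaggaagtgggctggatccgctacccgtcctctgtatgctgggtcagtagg
Sln, chr9:53757198-53757447, plus strand: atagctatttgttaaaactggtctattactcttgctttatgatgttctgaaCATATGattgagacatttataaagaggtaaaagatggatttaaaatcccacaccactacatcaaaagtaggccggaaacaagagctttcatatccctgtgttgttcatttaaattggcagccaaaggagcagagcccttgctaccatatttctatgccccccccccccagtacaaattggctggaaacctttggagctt

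Of the 8 members whose windows were searched, CANNTG was found in Casq1, Casq2, Sln and Cacna1s, and in 64.8% of the windows of 21770 protein-coding genes. The form CAGCTG, which is one kind of CANNTG, was present in Casq2 and in 11.9% of all windows. TATAAA was present in Sln and in 11.9% of all windows, with both strands searched. The MEF2 consensus was present in Casq1 and Pvalb and in 2.79% of all windows. Windows of 5 members (Atp2a1, Atp2a2, Ryr1, Casq1 and Pvalb) held exons of another transcript of the same gene, and the matches are a description of letters.

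The depth of the libraries was recovered from the steps between low values. The muscle libraries held 6131921 to 9262387 reads on genes, and the bone libraries 930306 to 6951916, so that 3 reads corresponded to 0.324 to 0.489 CPM (read counts scaled to a common library total) in muscle and 0.432 to 3.22 CPM in bone. The summed level of 11 fast fibre markers was 106150 to 181608 CPM in the muscle libraries, and 5 of 10 osteoblast and osteocyte markers (Bglap, Ibsp, Mepe, Sost and Sp7) had no row in the muscle table. Muscle VEH replicate 3, whose data column is named as a replacement, stood apart in adipocyte markers at 322 CPM, against 38.5 to 56.1 CPM in the other 7. It was also highest in the summed nerve markers (66.2 against 22.1 to 40.8 CPM), in the osteoblast and osteocyte list (149.96 against 23.6 to 46.4 CPM) and in the fibre type marker Myh2 (5241 against 808 to 1983 CPM). The bone libraries differed widely among themselves, since the median gene lay at 0.575 CPM in VEH replicate 1 and at 3.19 to 14.4 CPM in the other 7. The bone libraries also differed in muscle markers, as given beside the bone results. No pair of libraries within a group agreed within sampling noise: the chi-square per degree of freedom between the recovered reads of a pair was 4.03 at the lowest, for bone BAY replicates 1 and 2.

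In skeletal muscle, the release and reuptake genes of the fast fibre were among the most abundant transcripts. Atp2a1, the fast SERCA pump (chromosome 7, 126045030 to 126062280, minus strand, mm39), ranked 6 of 21011 genes by mean CPM. Ryr1, the release channel (chromosome 7, 28702769 to 28824604, minus strand), ranked 15, and Pvalb, parvalbumin (chromosome 15, 78075314 to 78090600, minus strand), ranked 44. Casq1, calsequestrin 1 (chromosome 1, 172037461 to 172047435, minus strand), ranked 59. Cacna1s, the pore subunit of the voltage sensor (chromosome 1, 135980488 to 136047560, plus strand), ranked 73. Jph1, junctophilin 1, which tethers the tubule to the SR (chromosome 1, 17034784 to 17168113, minus strand), ranked 162. The remaining 4 members ranked far lower, Atp2a2 (chromosome 5, 122591576 to 122640288, minus strand) at 2513, Casq2 (chromosome 3, 101993731 to 102053830, plus strand) at 4057, Pln (chromosome 10, 53213763 to 53222083, plus strand) at 8118 and Sln (chromosome 9, 53757448 to 53761844, plus strand) at 14914. The 10 members together took 2.39% to 3.53% of the CPM of a muscle library. Ranks by CPM favour long transcripts. By CPM per kilobase of canonical transcript, among 20883 genes with a length, Atp2a1 ranked 18, Pvalb 56, Casq1 58, Ryr1 59, Cacna1s 124 and Jph1 258.

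Levels between genes were compared per kilobase of canonical transcript over the 8 muscle libraries. Atp2a1 stood highest at 3994 ± 422 CPM per kilobase (SD, n = 8), and its lowest library lay above the highest of every other member. Pvalb at 547 ± 62.4, Casq1 at 535 ± 91.3 and Ryr1 at 533 ± 114 CPM per kilobase (SD, n = 8 each) did not differ beyond their spread. Pvalb exceeded Ryr1 in 4 of 8 libraries, and Casq1 exceeded Ryr1 in 3 of 8. With the length of all exons merged in place of the canonical transcript, Casq1 fell below Ryr1, at 187 against 375 CPM per kilobase.

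Below these genes, Cacna1s stood at 139 ± 20.5 and Jph1 at 68.6 ± 8.76 CPM per kilobase (SD, n = 8), each apart from its neighbours in every library. A gap followed, since Jph1 lay 11.1-fold (25.1-fold with merged exons) above Atp2a2, the slow and cardiac pump, at 6.19 ± 3.73 CPM per kilobase (SD, n = 8). Casq2 at 2.83 ± 0.726 CPM per kilobase (SD, n = 8) overlapped in range with Atp2a2 and was lower in 7 of 8 libraries. With merged exons, these last 2 exchanged places, at 2.75 for Casq2 and 2.25 CPM per kilobase for Atp2a2. Pln at 1.199 ± 0.379 was below Casq2 in every library, and Sln had the lowest mean at 0.425 ± 0.339 CPM per kilobase (SD, n = 8 each). The ranges of Pln and Sln overlapped, and Sln was lower in 7 of 8 libraries.

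**Figure D1:**
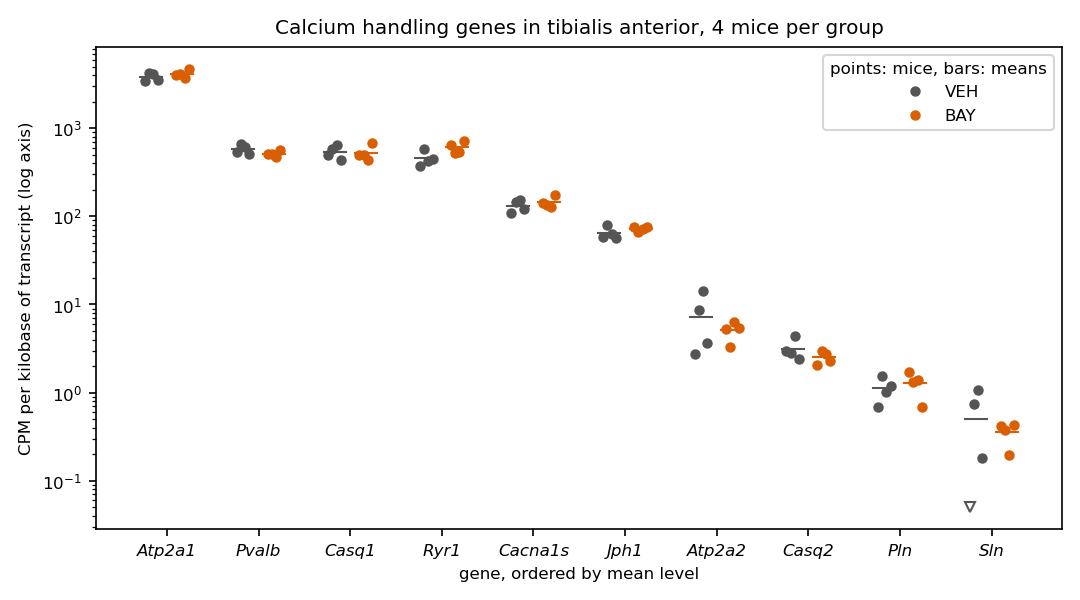
Level of the 10 calcium handling genes in the 8 muscle libraries, in CPM per kilobase of canonical transcript on a log axis, with points for single mice, bars for group means and an open triangle for the 1 library in which Sln was at 0 (placed at the foot of the axis). The 6 genes from Atp2a1 to Jph1 lie well above the 4 from Atp2a2 to Sln, and VEH and BAY points overlap in every gene.

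The first comparison asked whether AhR antagonism changed these genes in the muscle of aged mice. None of the 10 members passed an unadjusted P value of 0.05 in limma, whereas 9.79% of all 21011 genes did (6.71% higher and 3.07% lower with BAY). The smallest adjusted P value of a member was 0.633, and no gene of the table reached an adjusted P value of 0.05 in this fit. Of the members, 6 fold changes were above 0 and 4 below, beside 55.2% of all genes above 0, with a median log2 fold change of 0.13 against 0.06 over all genes. The range of the VEH-treated mice overlapped that of the BAY-treated mice in all 10 genes, where 5.73% of all genes did not overlap. Under other scalings, filters and tests, 0 or 1 member passed, and the genes concerned are given with their values below. The SE of Atp2a1 was 0.50 in this limma fit and 0.11 with voom on the recovered reads, and that of Ryr1 was 0.36 and 0.12. The absence of calls among abundant members therefore depended in part on the variance model.

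Ryr1, the channel through which calcium leaves the SR, had the largest fold change among the abundant members. Its level was 5785, 8923, 6607 and 6828 CPM in VEH replicates 1 to 4, and 9956, 8147, 8258 and 10940 CPM in BAY replicates 1 to 4. The highest VEH library lay above 2 of the BAY libraries, while the other 3 VEH libraries lay below all BAY libraries. The means were 7036 ± 1336 and 9325 ± 1358 CPM (SD, n = 4 each). The log2 fold change was 0.41 (SE 0.36, 95% confidence interval −0.37 to 1.20) with an unadjusted P value of 0.277 in limma, and the exact permutation P value was 0.0857. The error depended on the variance model. Over genes whose mean reached 1 CPM the unadjusted limma P value was 0.0484, without the mean-variance trend it was 0.0633, and with voom on the recovered reads it was 0.00266 (log2 fold change 0.42, adjusted P value 0.191).

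Cacna1s and Jph1, the voltage sensor that opens Ryr1 and the tether of the junction, did not pass either. Cacna1s was at 698, 927, 966 and 775 CPM with VEH and at 906, 847, 817 and 1123 CPM with BAY, a log2 fold change of 0.13 (SE 0.18, limma P value 0.461). Jph1 was at 280, 384, 304 and 273 CPM with VEH and at 364, 324, 349 and 369 CPM with BAY. Jph1 was higher in every BAY library than in 3 of the 4 VEH libraries, and below VEH replicate 2. Its log2 fold change was 0.19 (SE 0.14, 95% confidence interval −0.11 to 0.49), with a limma P value of 0.192, which became 0.0407 without VEH replicate 2.

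The fast pump and the fast calcium buffers were close between groups. Atp2a1 was at 14300, 17454, 17158 and 14565 CPM with VEH and at 16901, 17067, 15292 and 19581 CPM with BAY, and the log2 fold change was 0.12 (SE 0.50, limma P value 0.817). Casq1 was at 1077, 1267, 1399 and 940 CPM with VEH and at 1086, 1079, 948 and 1464 CPM with BAY. Its log2 fold change was −0.04 (SE 0.20, limma P value 0.863), and the sign turned without VEH replicate 2, VEH replicate 3 or BAY replicate 3. Pvalb was at 1697, 2071, 1931 and 1607 CPM with VEH and at 1589, 1625, 1475 and 1761 CPM with BAY, with a log2 fold change of −0.18 (SE 0.19, limma P value 0.381). The 95% confidence intervals were −0.96 to 1.19 for Atp2a1, −0.47 to 0.40 for Casq1 and −0.59 to 0.24 for Pvalb, so that a fold change of 2 lay outside them for the buffers and inside it for the pump. For Atp2a1 the interval depended on the fit, and it left out a fold change of 2 with voom (−0.10 to 0.33), without the variance trend (−0.22 to 0.46), with the filter at 1 CPM (−0.31 to 0.55) and with quantile normalization (−0.86 to 0.94).

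**Figure D2:**
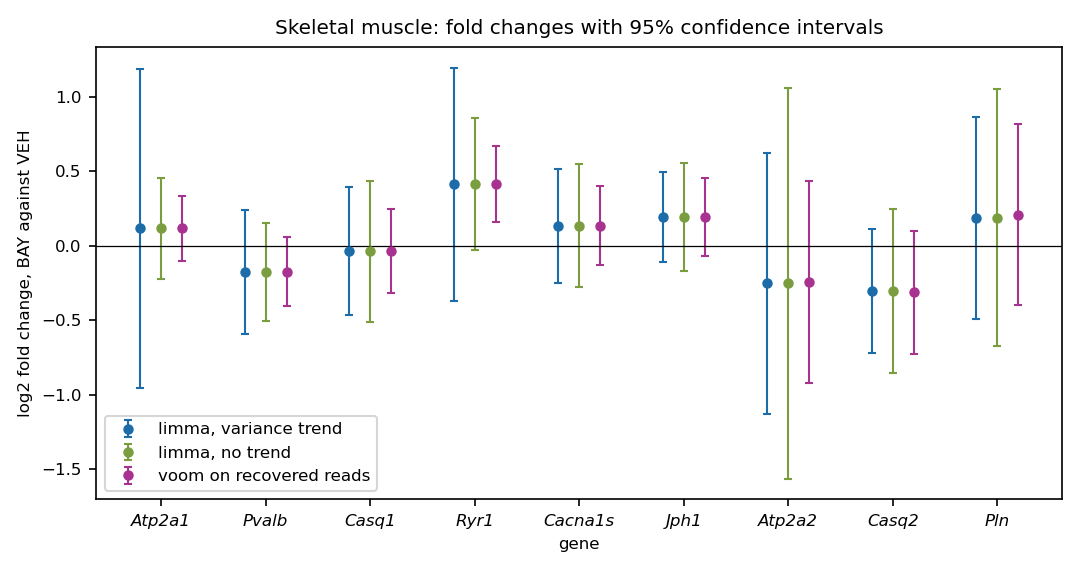
Log2 fold change of BAY against VEH in skeletal muscle with its 95% confidence interval for 9 members, from limma with a variance trend, limma without a trend and voom on recovered reads. The estimates hardly differ between the fits while the intervals do, and the interval of Ryr1 lies above 0 in the voom fit alone; Sln, with 0 to 13 reads per library, is not drawn.

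The slow and cardiac members were lower and varied more between mice. Atp2a2 was at 12.1, 38.2, 62.8 and 16.2 CPM with VEH and at 23.7, 14.5, 28.3 and 24.1 CPM with BAY. The VEH libraries spread 5.19-fold from the lowest to the highest and enclosed all 4 BAY libraries. The log2 fold change was −0.25 (SE 0.41, limma P value 0.545), and it became 0.17 without VEH replicate 3. Casq2 was at 16.3, 15.8, 24.5 and 13.2 CPM with VEH and at 11.4, 16.5, 15.1 and 12.6 CPM with BAY. Its log2 fold change was −0.30 (SE 0.19, 95% confidence interval −0.72 to 0.11, limma P value 0.139). After median centring and after quantile normalization, the unadjusted limma P value of Casq2 was 0.046 and 0.0432.

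The 2 inhibitors of the pumps were at low counts. Pln was at 2.85, 6.38, 4.13 and 4.94 CPM with VEH and at 7.04, 5.44, 5.77 and 2.82 CPM with BAY, which corresponded to 20.1 to 51.2 reads per library. Its log2 fold change was 0.19 (SE 0.32, limma P value 0.564), and it was −0.02 without VEH replicate 1. Sln was counted with 0, 7, 13 and 2 reads in the VEH libraries and 4, 3, 2 and 4 reads in the BAY libraries. The fitted log2 fold change of 2.06 (SE 2.07, limma P value 0.339) came from the library at 0, since it was −0.63 without VEH replicate 1 and −0.09 on the scale of log2(CPM + 1). With voom on the recovered reads it was 0.36 (SE 0.78). No difference in Sln was detected at this depth, and the size of difference that could be detected was not tested. Pln lies within the antisense gene Cep85l, and the use of strand in the counting is not given in the sources used here, although the muscle libraries came from a stranded kit.

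Markers of slow fibres were measured in the same muscle libraries. The sum of 6 slow fibre markers was 23.0, 216, 283 and 50.7 CPM in VEH replicates 1 to 4 and 134, 63.2, 119 and 154 CPM in BAY replicates 1 to 4. Atp2a2 was lowest in VEH replicate 1 and highest in VEH replicate 3, the libraries with the lowest and the highest slow fibre sum, and so was Sln. Casq2 was also highest in VEH replicate 3, the library that stood apart in other markers, and lowest in BAY replicate 1. Pln was highest in BAY replicate 1 and lowest in BAY replicate 4. Of the 6 slow fibre markers, only Myl3 passed in the comparison of BAY with VEH (log2 fold change 0.45, unadjusted limma P value 0.00809). The part of fibre content in the spread of Atp2a2 and Sln was not tested, and in whole muscle fewer slow fibres and less RNA per slow fibre cannot be told apart. Heart-specific Nppa and Nppb had no row in the muscle table, and the 3 remaining cardiac markers summed to 7.45 to 31.0 CPM. In the other marker lists, Tnni3 of the cardiac and Smtn of the smooth muscle list were higher and Plin1 of the adipocyte list was lower with BAY, at unadjusted limma P values of 0.0133, 0.000944 and 0.0368, and no fast fibre, nerve or red cell marker passed in limma. Tnni3 was at 0 in 3 VEH libraries and at 0.108 to 0.652 CPM in the other 5. With voom on the reads, the fast fibre marker Myl1 was lower with BAY (log2 fold change −0.31, unadjusted P value 0.0160).

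**Figure D3:**
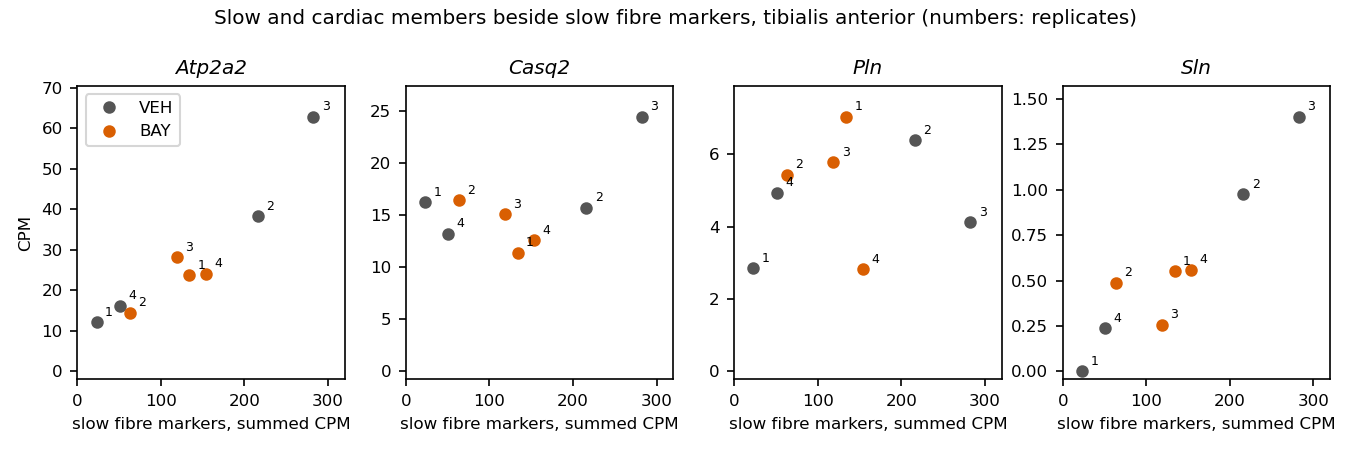
CPM of Atp2a2, Casq2, Pln and Sln in the 8 muscle libraries against the summed CPM of 6 slow fibre markers in the same library, with replicate numbers beside the points. Atp2a2 and Sln are lowest in VEH replicate 1 (23.0 CPM of markers) and highest in VEH replicate 3 (283 CPM), and the VEH points of Atp2a2 lie on both sides of the BAY points.

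The balance between isoforms, and between inhibitor and pump, was compared within each library, where library scaling cancels. Per kilobase of canonical transcript, Atp2a2 was 818-fold below Atp2a1 and Casq2 was 175-fold below Casq1 at the median library. With merged exons, these folds were 1383 and 63.1. The ratios that follow are of CPM, not divided by length. The log2 ratio of Atp2a2 to Atp2a1 was −9.24 ± 0.955 with VEH and −9.61 ± 0.465 with BAY (SD, n = 4 each, exact permutation P value 0.543). The log2 ratio of Casq2 to Casq1 was −6.09 ± 0.206 with VEH and −6.36 ± 0.428 with BAY (SD, n = 4 each, exact permutation P value 0.314). That of Pln to Atp2a2 was −2.58 ± 0.967 with VEH and −2.14 ± 0.734 with BAY (SD, n = 4 each, exact permutation P value 0.514). The ratio of Sln to Atp2a1 gave an exact permutation P value of 0.83, and the library at 0 makes its size uninterpretable. Of these 4 ratios, all overlapped between groups, and the smallest two-sided P value that 4 against 4 mice allow is 0.0286.

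Beyond the members, 57 of 60 further calcium genes in 5 lists were in the muscle table, and 6 of them were higher and 1 lower with BAY at an unadjusted P value under 0.05, beside 6.71% and 3.07% of all genes (9.79% in all). Their median log2 fold change was 0.05 against 0.06 over all genes, and with voom on the reads, which called 10.5% of all genes, 4 were higher and 1 lower. Of 17 triad and junctional partners, 2 were higher and 1 lower. Of 13 other release channels and pumps 4 were higher, or 1 with voom. No gene passed among 12 of store-operated entry and mitochondrial uptake or among 14 calcium sensors and kinases in limma, where voom called 1, the kinase subunit Camk2b, which lies outside the rule for named genes. Of 4 other SERCA micropeptides only Mrln, myoregulin, had a row, at 4.65 to 7.57 CPM with VEH and 4.00 to 6.59 CPM with BAY (log2 fold change −0.09, limma P value 0.690).

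Trdn, triadin, which anchors calsequestrin to the release channel, was the gene that was lower with BAY. It was at 540, 594, 809 and 569 CPM with VEH and at 485, 535, 443 and 484 CPM with BAY. All 4 BAY libraries lay below all 4 VEH libraries, as in 1.53% of all genes. The log2 fold change was −0.35 (SE 0.16, unadjusted limma P value 0.0456, adjusted P value 0.500), and the exact permutation P value of 0.0286 is the smallest this design can give.

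Jph2, junctophilin 2, and Jsrp1, a junctional SR protein that binds calsequestrin 1, were higher. Jph2 was at 318, 499, 423 and 316 CPM with VEH and at 492, 499, 503 and 556 CPM with BAY (log2 fold change 0.42, SE 0.17, unadjusted limma P value 0.0230). VEH replicate 2 lay within the BAY range of Jph2, and the other 3 VEH libraries lay below it. Jsrp1 was at 156, 192, 186 and 157 CPM with VEH and at 197, 224, 189 and 308 CPM with BAY (log2 fold change 0.39, SE 0.16, unadjusted limma P value 0.0287). VEH replicate 2 lay above BAY replicate 3, which was the one overlap.

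Among the pumps and channels, Slc8a3, a sodium/calcium exchanger of the plasma membrane, had the smallest P value. It was at 62.3, 94.4, 72.0 and 87.2 CPM with VEH and at 129, 81.2, 121 and 114 CPM with BAY (log2 fold change 0.49, SE 0.17, unadjusted limma P value 0.0112, adjusted P value 0.375). BAY replicates 1, 3 and 4 lay above all VEH libraries, and BAY replicate 2 lay within their range. Itpr3, an inositol trisphosphate receptor, Atp2a3, the third SERCA pump, and Atp2b3, a plasma membrane calcium pump, had log2 fold changes of 0.39, 0.45 and 0.37 at means of 9.34, 6.25 and 11.3 CPM with VEH. Their unadjusted limma P values were 0.0429, 0.0451 and 0.0493, and those of voom were 0.0561, 0.0501 and 0.0613. Cacnb1 and Stac3, partners of the voltage sensor, Srl and Hrc, calcium binding proteins of the SR, and Ryr3, the minor ryanodine receptor, had limma P values of 0.291, 0.765, 0.801, 0.382 and 0.323. Ryr3 was at 0.163 to 1.42 CPM over the 8 muscle libraries.

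The calls among these 7 genes depended on single libraries and on the variance model. Slc8a3 passed with any 1 of the 8 muscle libraries left out, with unadjusted limma P values from 0.00195 to 0.0464. Of these 8 fits, Jph2 passed in 5, Jsrp1 and Itpr3 in 4 each, and Trdn, Atp2a3 and Atp2b3 in 2 each. The highest unadjusted limma P value was 0.0797 for Jph2, 0.0928 for Jsrp1, 0.154 for Itpr3, 0.122 for Trdn, 0.137 for Atp2a3 and 0.137 for Atp2b3. Without a mean-variance trend, all 7 were above the threshold, at 0.0553 to 0.0898.

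**Figure D4:**
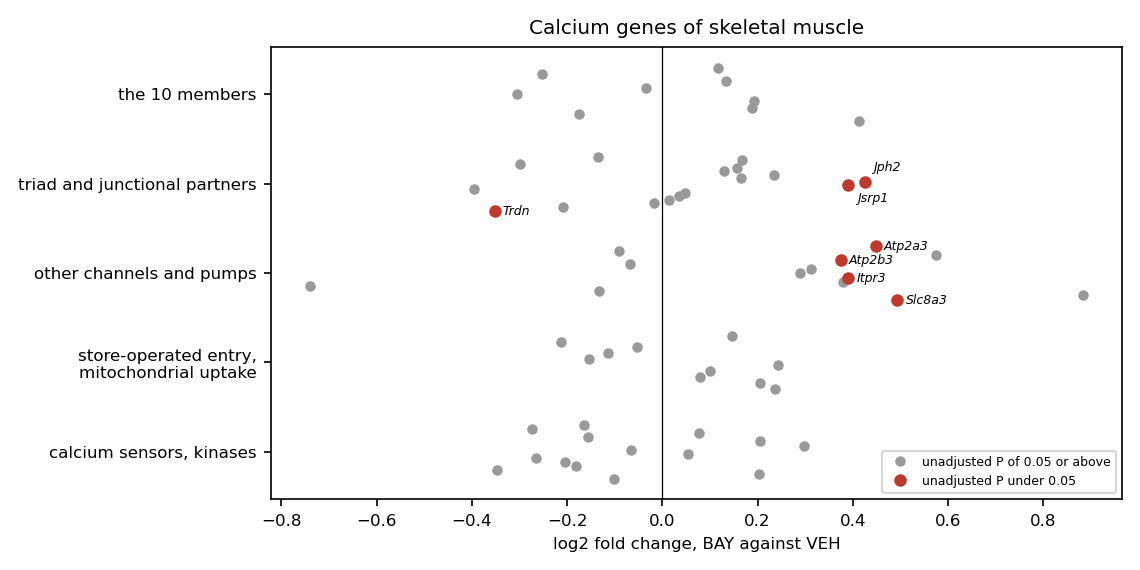
Log2 fold change of BAY against VEH in skeletal muscle for the 10 members and 4 further calcium lists, 1 point per gene, red where the unadjusted limma P value was under 0.05. Red points are Trdn on the left at −0.35 and 6 genes on the right from 0.37 to 0.49, with no member among them; Sln, Fkbp1b, Mcub and Orai2, with changes of over 1, are not drawn.

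In cortical bone, the fast fibre members varied over orders of magnitude between mice of the same group. Atp2a1 was at 1226, 52.9, 11.1 and 2.18 CPM in VEH replicates 1 to 4, and at 5187, 5285, 199 and 9.11 CPM in BAY replicates 1 to 4. Ryr1 was at 649, 74.6, 24.1 and 31.3 CPM with VEH and at 1961, 2018, 109 and 60.2 CPM with BAY, a range of 83.7-fold. BAY replicates 1 and 2 and VEH replicate 1 were the 3 highest libraries in Atp2a1, Ryr1, Casq1, Cacna1s and Pvalb. In VEH replicate 4, Casq1 and Cacna1s rested on 1 read each and Atp2a1 on 3 reads, while Ryr1 had at least 43 reads in every bone library.

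The same 3 libraries had the highest sums of fast fibre markers. The sum was 9502, 225, 79.7 and 49.5 CPM in VEH replicates 1 to 4 and 35058, 38579, 1336 and 103.6 CPM in BAY replicates 1 to 4, against at least 106150 CPM in muscle. Osteoblast and osteocyte markers summed to 7177, 1502, 30071 and 22227 CPM with VEH and to 1988, 1703, 22086 and 2261 CPM with BAY, so that only BAY replicate 3 of the treated mice was above 2261 CPM. Both sums overlapped between the groups. The log2 fold change of fast fibre markers was above 0 in 11 of 11, beside 80.9% of all genes, and that of osteoblast and osteocyte markers in 0 of 10 (9 of 11 and 0 of 10 after median centring, 11 of 11 and 1 of 10 with array weights), and only Myl1 passed an unadjusted limma P value of 0.05.

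The level of each member was therefore set against the fast fibre sum of its own library, as a log2 ratio. In the 3 bone libraries with the highest sums, the median ratio of Atp2a1, Ryr1, Casq1, Cacna1s, Pvalb and Jph1 was within −0.12 to 0.19 of its median in the 8 muscle libraries. For Atp2a2, Casq2, Pln and Sln, the ratio in these 3 libraries was above the muscle range, by 2.58, 2.09, 3.39 and 5.94 at the medians. By mean CPM in bone, Casq2 and Sln ranked only 16523 and 17837 of 38933 genes. The median gene of these 3 libraries lay at 0.575 to 6.26 CPM, and how far the level of a typical bone gene accounts for these ratios was not tested. The 2 tables were normalized separately, but a ratio within a library does not depend on its scaling. In the 5 bone libraries with lower fast fibre sums, the ratios of Ryr1, Casq1, Cacna1s and Jph1 were above the muscle range in each, while those of Atp2a1 and Pvalb were not above it in every one. In these 5 libraries, Casq1 rested on 1 to 33 reads and Cacna1s on 1 to 20.7 reads. The lowest Cacna1s ratio was −6.988, against a highest of −7.002 in muscle. The part of muscle tissue in the bone values was not tested.

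The 4 members of slow, cardiac and smooth muscle did not follow the fast fibre sum in bone. Atp2a2, which encodes the pump of most non-muscle cells as well, was at 98.2, 23.9, 67.7 and 93.1 CPM with VEH and at 32.6, 28.9, 74.3 and 29.0 CPM with BAY. It was among the steadiest members in bone, with a range of 4.10-fold. The sum of 6 slow fibre markers in bone was 450 CPM in VEH replicate 1, where Atp2a2 was highest, and 26.2 to 75.5 CPM in the other 7, and their part in the Atp2a2 values was not tested. Casq2 was at 4.89, 17.5, 2.83 and 8.74 CPM with VEH and at 19.7, 14.9, 2.04 and 12.9 CPM with BAY. Pln was at 1.85, 25.3, 5.04 and 26.9 CPM with VEH and at 14.6, 19.7, 6.62 and 69.6 CPM with BAY. Sln was at 1.01, 19.3, 2.83 and 10.2 CPM with VEH and at 12.5, 8.68, 3.56 and 16.1 CPM with BAY, from 7 to 28 reads per library. The lowest library of Pln and Sln, VEH replicate 1, was also that with the lowest median over all genes, and the highest of Pln, BAY replicate 4, was that with the highest median.

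**Figure D5:**
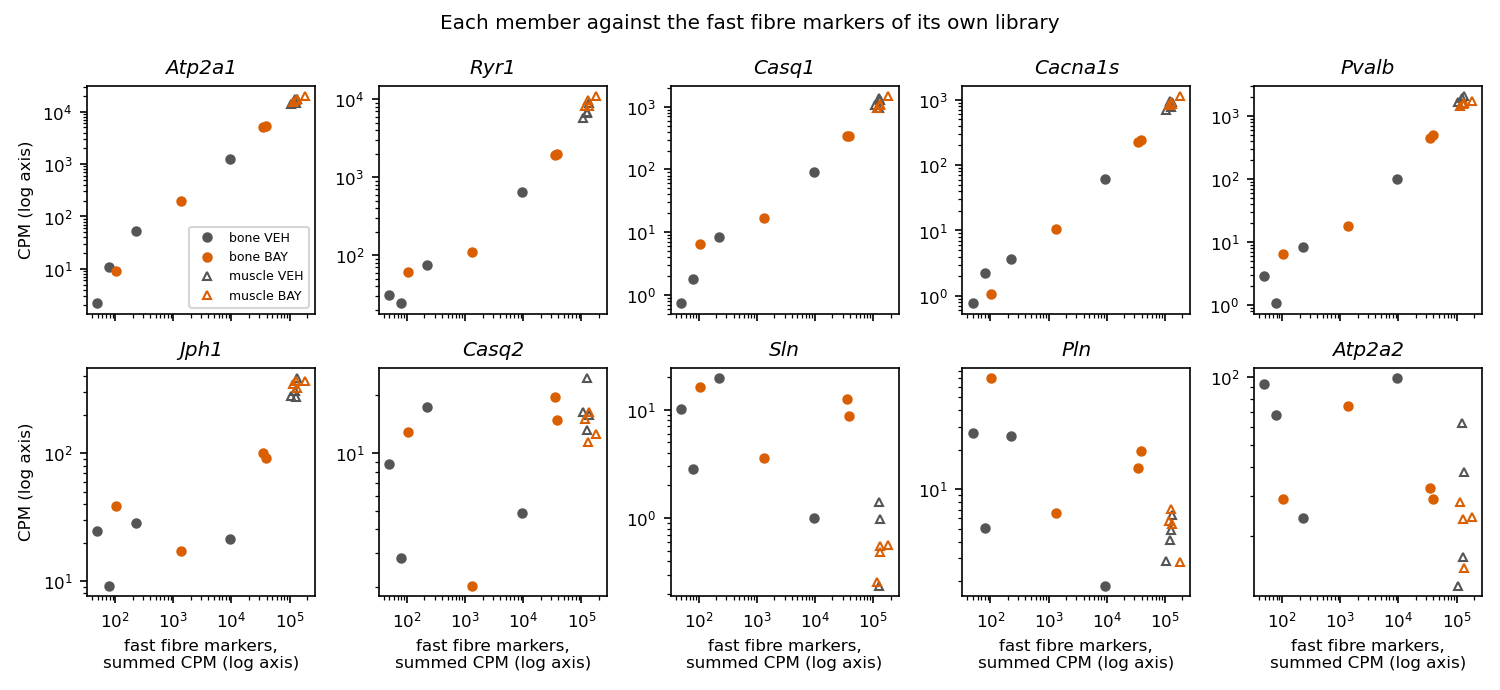
CPM of each member against the summed CPM of 11 fast fibre markers in the same library, both on log axes, for bone (filled circles) and muscle (open triangles), coloured by treatment; the muscle library with Sln at 0 is not drawn. Atp2a1, Ryr1, Casq1, Cacna1s and Pvalb rise with the markers from bone to muscle, while Casq2, Sln, Pln and Atp2a2 do not.

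In the comparison of BAY with VEH in bone, 1 of 10 members, Casq1, passed an unadjusted P value of 0.05 with a fold change of at least 2, against 0.64% of all 38933 genes. Casq1 was at 90.3, 8.29, 1.77 and 0.728 CPM with VEH and at 342, 344, 16.8 and 6.45 CPM with BAY, and VEH replicate 1 lay above 2 of the BAY libraries. Its log2 fold change was 3.42 (SE 1.56, 95% confidence interval 0.05 to 6.79), with an unadjusted limma P value of 0.0470, an adjusted P value of 0.887 and an exact permutation P value of 0.171. The call was lost with a filter at a mean of 1 CPM, with median centring, with quantile normalization, with voom and without a variance trend. More members passed, Casq1 among them, with log2(CPM + 1) (5 members), with array weights (6) and with the replicate block (6). Voom called 3.68% of all genes in bone and none of the members. The groups overlapped in all 10 members, where 0.406% of all genes did not overlap.

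Of the members, 9 had a log2 fold change above 0 in bone and 1 below, beside 80.9% of all genes above 0, with a median of 1.87, where the median over all 38933 genes was itself 0.84. After median centring or quantile normalization, 8 members were above 0 and 2 below. Relative to that shift, the changes were 2.90 for Atp2a1, 2.59 for Casq1, 2.49 for Pvalb, 1.83 for Cacna1s, 1.53 for Ryr1 and 0.53 for Jph1. They were 0.26 for Pln, 0.03 for Sln, −0.37 for Casq2 and −1.55 for Atp2a2. As fitted, the log2 fold change was 3.74 for Atp2a1 (SE 2.05, limma P value 0.0921), 3.33 for Pvalb (SE 1.56, P value 0.0522), 2.67 for Cacna1s (SE 1.72, P value 0.144), 2.37 for Ryr1 (SE 1.26, P value 0.0838) and 1.37 for Jph1 (SE 0.70, P value 0.0711), none past the threshold. The unadjusted limma P values of Pln, Sln, Casq2 and Atp2a2 were 0.304, 0.449, 0.650 and 0.268. Pvalb itself was at 101, 8.29, 1.06 and 2.91 CPM with VEH and at 455, 502, 17.8 and 6.45 CPM with BAY. Cacna1s was at 60.2, 3.68, 2.20 and 0.765 CPM with VEH and at 221, 244, 10.5 and 1.07 CPM with BAY. Jph1 was at 21.1, 28.5, 9.21 and 24.8 CPM with VEH and at 101, 91.0, 17.3 and 38.7 CPM with BAY. The number of members passing was 6 without VEH replicate 1, 4 without BAY replicate 3, 5 without BAY replicate 4 and 0 without any other single library, where 0.673%, 0.655% and 0.480% of all genes passed in the first 3 of these fits, so that the count in bone rested on single libraries. Without VEH replicate 1 the median over all genes was −0.09, and that of the members was 2.40.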

How the data were processed

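Bulk RNA-seq was analysed for skeletal muscle (tibialis anterior) and cortical bone of VEH- and BAY-treated mice, 4 libraries per group, with groups and replicate numbers taken from the labels. Reads had been aligned by the authors with STAR (version 2.7.8a) to mm39 and quantified against Ensembl release 104 with Partek E/M. The authors deposited log2 of CPM plus a small constant, which was 0.0001 for bone and 0.0004 for muscle, as read from the lowest value of each table. In the bone table, 61 rows merge several gene identifiers.

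CPM was obtained by undoing the logarithm and the constant. The CPM of 1 read was found from the spacing of low values, and 81.3% to 88.5% of values up to 50 reads were whole multiples to within 0.02. The floor of 3 reads covers counting error only, since reads carry no molecular identifiers. For each tissue, limma (version 3.58.1, R version 4.3.3) was fitted to the deposited values of all genes with lmFit and eBayes (trend on), two-sided, with no filter and with Benjamini-Hochberg adjustment over all genes. Fold changes carry the same constant. The study names limma-voom and calls genes at P under 0.05 with a fold change of 2 or more. At these thresholds, voom on the recovered reads called 700 genes in muscle and 1433 in bone, close to the counts of the study. The limma fit called 510 and 249. Single values were also compared by exact permutation of the 8 libraries.

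The members and gene lists were chosen with earlier results of these data known. Named genes were the 10 members, other listed calcium genes at P under 0.05 in muscle (at most 8) or of fixed roles, and, for the member with the largest SD in muscle, the 5 genes averaging 10 CPM or more with the most similar levels. Alternatives were log2(CPM + 1), testing only genes whose mean reached 1 CPM, median centring, quantile normalization, array weights, voom on recovered reads, the replicate number as a block, leaving out each library and, chosen after seeing the data, eBayes with the trend off. On simulated data, limma recovered 86% of genes changed by 1 on the log2 scale in muscle (21011 genes) and 17.5% in bone (38933 genes), and voom on simulated reads recovered 33% in each. The limma values were drawn with the observed spread of each gene, but the voom reads with the same fixed dispersion in both tissues. The rates of the limma and voom simulations are therefore not comparable. Canonical lengths and starts came from GENCODE M39, and the upstream windows of 2 members are not reported here. Python (version 3.11.15), numpy (version 2.4.6), pandas (version 2.3.3) and matplotlib (version 3.10.9) were used.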

Additional observations from a re-analysis of the deposited data

Results flagged for a closer look

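In cortical bone, the highest of the 4 BAY-treated mice lay far from the others for Atp2a2, the slow and cardiac SERCA pump: BAY replicate 3 was at 74.3 CPM, against 28.9 to 32.6 CPM in BAY replicates 1, 2 and 4. The gap to the nearest mouse exceeded the critical value of Dixon's test for 4 samples. In all, 40 groups of 4 mice (10 members, 2 tissues and 2 treatments) were examined and 1 passed, where chance gives about 1 in 20. BAY replicate 3 was also the treated bone library with the highest sum of osteoblast and osteocyte markers, at 22086 CPM, and their part in the Atp2a2 value was not tested.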

How the results depend on the processing

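In skeletal muscle, the count of members at an unadjusted P value under 0.05 was 0 and became 1 with the filter at a mean of 1 CPM (Ryr1), with median centring (Casq2), with quantile normalization (Casq2) and with voom on recovered reads (Ryr1), where 12.8%, 11.6%, 12.05% and 10.5% of all genes passed. It ranged from 0 to 1 when each library was left out, with Jph1 passing without VEH replicate 2. The fold changes that turned sign were Sln, at −0.094 with log2(CPM + 1) and −0.63 without VEH replicate 1 (range with a library left out −0.63 to 3.29), Pln, at −0.020 without VEH replicate 1 (range −0.020 to 0.46), Cacna1s, at −0.0039 with quantile normalization, Atp2a2, at 0.17 without VEH replicate 3 (range −0.62 to 0.17), and Casq1, at 0.0085, 0.056 and 0.049 without VEH replicate 2, VEH replicate 3 and BAY replicate 3 (range −0.16 to 0.056). The log2 ratio of Sln to Atp2a1 differed by −0.21 with log2(CPM + 1) and by −0.70 to 3.14 with a library left out. The difference of Atp2a2 to Atp2a1 then ranged from −0.69 to 0.01, that of Casq2 to Casq1 from −0.40 to −0.10 and that of Pln to Atp2a2 from −0.01 to 0.76. In cortical bone, the count of 1 became 5 with log2(CPM + 1), 6 with array weights and 6 with the replicate block, under which 0.503%, 2.31% and 0.783% of all genes passed, and 0 with the filter, median centring, quantile normalization, voom and no variance trend, and it ranged from 0 to 6 with a library left out. Turned signs in bone were Atp2a2, at 0.011 with array weights, Casq2, at −0.39 with median centring and −0.44 with quantile normalization, and Sln, at −0.034 with array weights. The cause of these changes was not tested. The labels do not say whether the replicate numbers pair the mice. Same-numbered libraries deviated from their group means with correlations of −0.09 to 0.01 in muscle and −0.11 to 0.19 in bone. Correlations over so few libraries cannot settle whether mice or processing were paired. With the replicate block, 0 members passed in muscle and 6 in bone. Depth limits Sln in muscle (0 to 13 reads) and Atp2a1, Casq1, Cacna1s and Pvalb in the lowest bone libraries, with 1 to 3 reads at their lowest.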

Other observations

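For Sln, the member with the largest SD over the muscle libraries, the 5 genes with the most similar pattern after removal of group means were Stk24, Iws1, Rbm28, Ubqln2 and Pebp1, with Pearson r of 0.991, 0.991, 0.990, 0.976 and 0.973 over 8 libraries, among the 5559 genes averaging 10 CPM or more. These correlations rest on VEH replicate 1, the library in which Sln was at 0, and are a description. For Atp2a2, with the next largest SD and added after its values were seen, they were Tmem127, Dcun1d2, Igf2r, Tmem131 and Pcnx, with r of 0.996, 0.990, 0.990, 0.990 and 0.987. The genes were measured in the same libraries, which differ in depth and fibre markers, and nothing on shared function or control is drawn from the likeness.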
